A study of Cavia porcellus with 30 samples.

Results

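A group of 57 transcripts was lower in guinea pig renal proximal tubular epithelial cells after 12 h of mercuric chloride at the high dose and close to the vehicle level in the other measured conditions that bounded the choice. The transcripts were selected on their mean levels, in TPM (a level corrected for transcript length and scaled to the same total in each library). For each dose and time, the change was the log2 ratio of the treated mean plus 0.5 TPM to the mean of the vehicle libraries of the same time plus 0.5 TPM. A member had at least 1 TPM in its highest group, a change of -0.8 or lower at 40 µM and 12 h, and changes between -0.3 and 0.3 in 2 further comparisons, 30 µM for 12 h and 40 µM for 24 h. The 57 members came from 15909 transcripts past the floor of 1 TPM and from 25824 transcripts measured in all. The change at 30 µM and 24 h took no part in the choice, although it rests on the same 24 h vehicle libraries as the high dose.

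The cells were isolated from Hartley guinea pigs, 6 to 8 weeks old, and were grown as primary cultures in wells. They received vehicle (Hepatocyte Maintenance Medium) or mercuric chloride at 30 µM (low dose) or 40 µM (high dose) for 12 h or 24 h. Each of the 6 groups held 5 libraries, with totals of 21651452 to 35021210 estimated counts over the 30 libraries. The labels do not say whether libraries of a group came from separate animals or cultures, so p-values measure the spread between these libraries, which may be technical. A library stood apart in each low-dose group, replicate 5 of 12 h and replicate 5 of 24 h, which are separate samples that share only a running number. Over all transcripts past the floor, the median change against vehicle was -0.20 in the first, against -0.08 to -0.06 in the other 4 libraries of its group, and -0.12 in the second, against -0.03 to 0.01. Without the library of 12 h the choice gave 63 members, 52 of them among the 57, and without that of 24 h it gave the same 57.

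Proximal tubular epithelial cells form the wall of the tubule next to the glomerulus, where they take back most filtered glucose, amino acids and salt. They also take up mercuric ions, which bind thiol groups of glutathione and of proteins, and the segment is known as a main site of mercury injury. Metallothioneins and the enzymes of glutathione synthesis are the textbook defence of these cells against the metal. The tables identify transcripts by Ensembl numbers without gene names, and 0 of the 57 member identifiers were found in the RefSeq gene table (37416 genes, assembly mCavPor4.1). The roles of the members, and the markers of the cells, were therefore not examined. In bulk libraries, fewer cells that carry a transcript and less of it per cell cannot be told apart.

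Most transcripts that were lower at the high dose at 12 h were also lower in a neighbouring condition. Of 750 transcripts with a change of -0.8 or lower, 626 lay below the band of ±0.3 at the low dose at 12 h, 105 lay within it and 19 above it. At the high dose at 24 h, 424 of the 750 lay below the band, 282 within it and 44 above it. The 57 members were those within both bands. Transcripts lay close to each limit. Within 0.05 of the limit on the change there were 13 members just inside and 16 transcripts just outside that met the other criteria. At the lower limit of the 30 µM band there were 18 just inside and 21 just outside, and at the lower limit of the band for 40 µM and 24 h there were 8 and 2. The member nearest to the limit had a change of -0.80, and held means of 2.12 TPM in vehicle and about 1 TPM at the high dose at 12 h. The nearest transcript outside it also had a change of -0.80 at 2 decimals, with means of 1.46 and 0.631 TPM.

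Members are numbered below from 1 to 57, from the lowest change at the high dose at 12 h to the highest. The change had a median of -0.93 and ranged from -1.68 to -0.80, and 19 members had a change of -1 or lower. As a share of the vehicle mean, the level at the high dose at 12 h had a median of 47.9% and ranged from 6.64% to 56.6%. These values were fixed by the choice and are a description.

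In edgeR's quasi-likelihood test, with Benjamini-Hochberg adjustment over all transcripts and a call at an adjusted p under 0.1, 42 of the 51 members tested were called lower at the high dose than in vehicle at 12 h. Among all transcripts tested, 26.1% were called lower in this comparison, which the choice of members used. The other 6 members did not pass the filter on low counts. They had at most 4.75 TPM and at most 18.0 mean estimated counts in vehicle at 12 h, and were at most 678 bases long. For 37 of the 57 members, all 5 high-dose libraries lay below all 5 vehicle libraries at 12 h. The share over all transcripts past the floor was 21.6%.

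Library by library, the median change of the 57 members against the vehicle mean was -0.78, -1.10, -0.85, -1.17 and -0.90 in high-dose replicates 1 to 5 at 12 h. The 5 libraries thus differed in depth of change, with replicates 2 and 4 lowest. The other 693 transcripts with a change of -0.8 or lower had medians of -0.91, -1.17, -0.99, -1.15 and -1.09 in the same libraries, so replicates 2 and 4 were lowest there too. At the low dose at 12 h the member medians ranged from -0.30 to -0.15, at the low dose at 24 h from -0.13 to -0.07, and at the high dose at 24 h from -0.16 to -0.07. The limits of the choice set the gap between the high-dose libraries of 12 h and 2 of these groups, 30 µM for 12 h and 40 µM for 24 h.

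**Figure D1:**
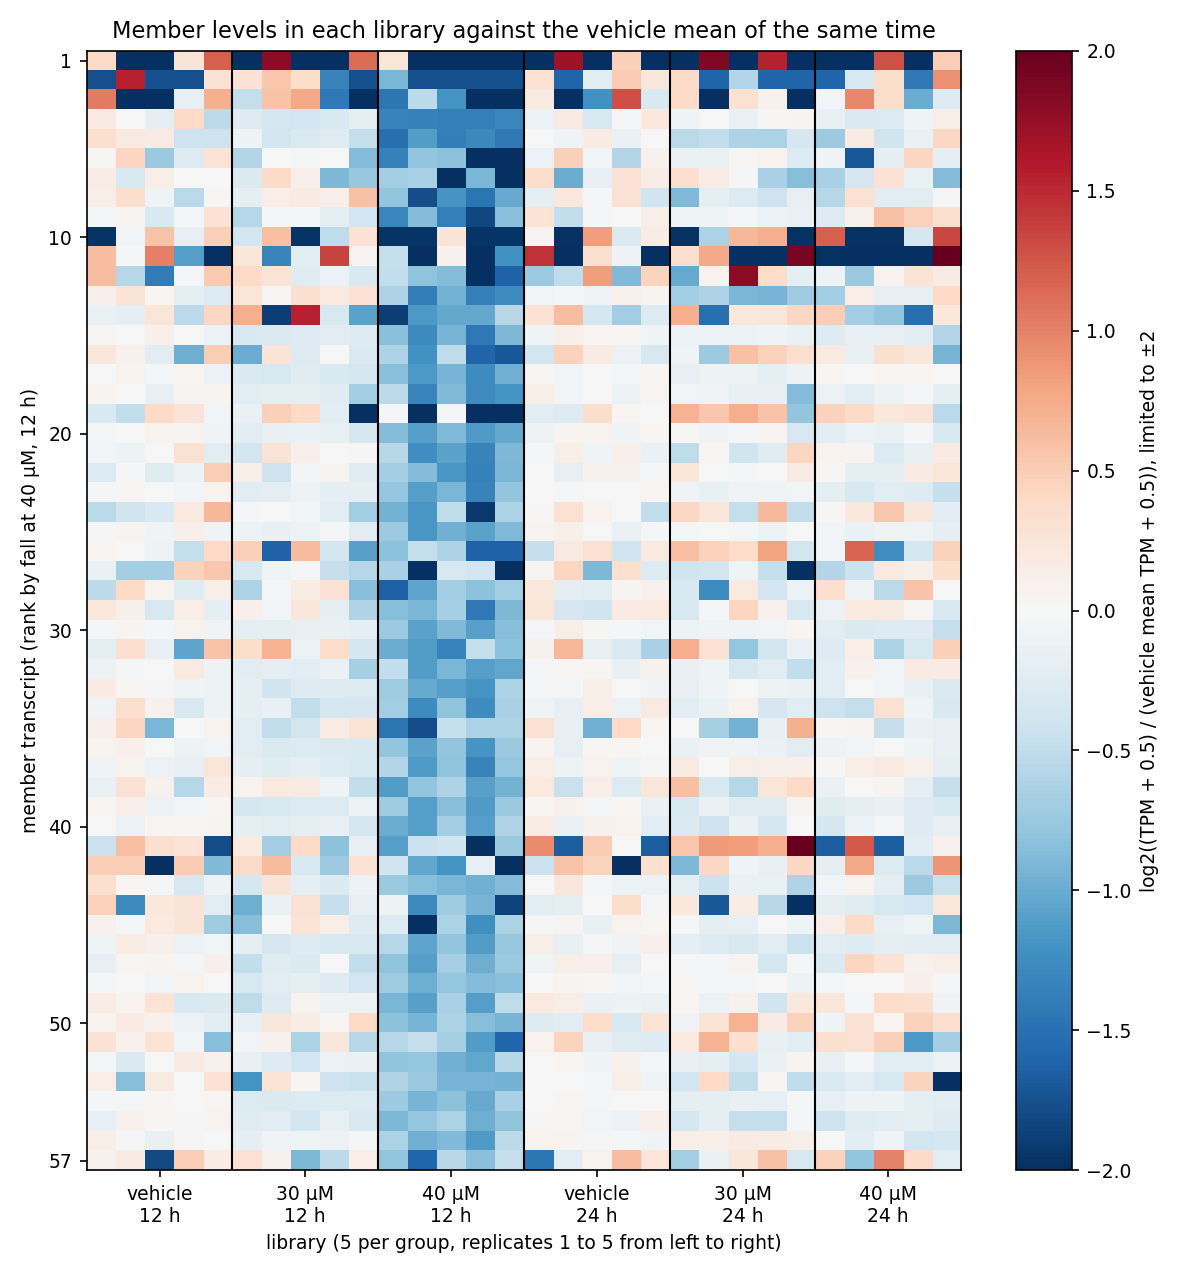
Level of each of the 57 members (rows, by rank of the change at 40 µM and 12 h) in each of the 30 libraries (columns, 5 per group), as log2 of TPM plus 0.5 against the vehicle mean of the same time, with colours limited to ±2. The 5 columns of 40 µM at 12 h are blue in nearly all rows, with medians from -1.17 to -0.78, and rows with mixed colours in all groups are mostly transcripts under 10 TPM.

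The members differed in how firmly they were measured. In vehicle at 12 h, 22 members had at least 10 TPM and 35 had less. Among the 22, the coefficient of variation over the 5 libraries of 12 h had a median of 6.27% in vehicle, 5.27% in the low-dose group and 14.6% in the high-dose group. Among the 35, the same medians were 30.9%, 26.1% and 42.6%. At the high dose, 20 of the 22 abundant members lay below vehicle at 12 h without overlap, against 17 of the 35 others. Over all transcripts past the floor, of any level, the share was 21.6%. The edgeR test called 21 of the 22 abundant members and 21 of the 29 others tested, where 26.1% of all transcripts were called lower. A second split was by whether the estimated counts were whole in all libraries. Below vehicle at 12 h without overlap were 21 of 22 members with whole estimates and 16 of 35 with fractional estimates. The choice used this comparison, so these counts are a description, and shares within each level or estimate type were not computed. A fractional estimate marks reads shared with another transcript, and such a level is uncertain as far as those reads could belong to either.

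Among the 22 abundant members, replicate 4 held the lowest of the 5 values in 17 of the 22, replicate 2 in 3, and replicates 1 and 5 in 1 each. Among the 35 members under 10 TPM, the lowest value was in replicate 2 for 13 and in replicate 4 for 10. It was in replicate 5 for 6, in replicate 1 for 4 and in replicate 3 for 2. Some of the 35 members were at 0 in several of these libraries, and a tie went to the lower replicate number. Of all 8763 transcripts of at least 10 TPM, 26.3% had their lowest value in replicate 4, and of the 309 such transcripts that had a change of -0.8 or lower and were not members, 46.9% did. The members share these 5 libraries and are not replicates of each other.

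Summed over the 57 members, the level was 4497 ± 116 TPM (SD, n = 5) in vehicle at 12 h, 3783 ± 97.0 with 30 µM and 2296 ± 263 with 40 µM. At 24 h the sums were 4290 ± 50.7 for vehicle, 3968 ± 52.5 with 30 µM and 4109 ± 69.8 with 40 µM. A single transcript made up much of each sum. Without it, the sums at 12 h were 2385 ± 17.2, 2062 ± 61.6 and 1252 ± 142 TPM in the same order, and those at 24 h were 2265 ± 40.1, 2117 ± 12.7 and 2051 ± 50.7.

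That transcript was ENSCPOT00000038360.1 (transcript 17), 2044 bases long, with whole estimated counts in all libraries. In vehicle at 12 h it measured 2131, 2216, 2085, 2170 and 1957 TPM. At the low dose it measured 1732, 1696, 1794, 1714 and 1667 TPM, and at the high dose 1188, 955, 1113, 884 and 1079 TPM. The 3 groups of 12 h did not overlap. The log2 fold change at the high dose was -0.97 (SE 0.07, edgeR adjusted p = 1.73e-06) and at the low dose -0.20 (SE 0.04, edgeR adjusted p = 0.00300). At 24 h the means were 2024 ± 51.6 TPM for vehicle, 1851 ± 55.3 with 30 µM and 2058 ± 25.3 with 40 µM (SD, n = 5). The high-dose libraries of 24 h overlapped with vehicle, while those of the low dose lay below it. The low dose was not called at 24 h (log2 fold change -0.10, SE 0.04, edgeR adjusted p = 0.104).

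The transcript with the lowest change among members with whole estimates, at least 50 mean counts and no overlap with vehicle was ENSCPOT00000000250.3 (transcript 4), 1366 bases long. It measured 3.20, 2.75, 2.39, 3.75 and 1.78 TPM in vehicle at 12 h. The low-dose libraries held 2.25, 2.09, 2.02, 2.11 and 2.36 TPM, within the range of vehicle. The high-dose libraries held 0.795, 0.784, 0.769, 0.765 and 0.824 TPM, below every other library of 12 h. The log2 fold change at the high dose was -1.76 (SE 0.25, edgeR adjusted p = 0.000165). At 24 h all 3 groups overlapped, with means of 2.33 TPM for vehicle, 2.28 TPM for 30 µM and 2.09 TPM for 40 µM.

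**Figure D2:**
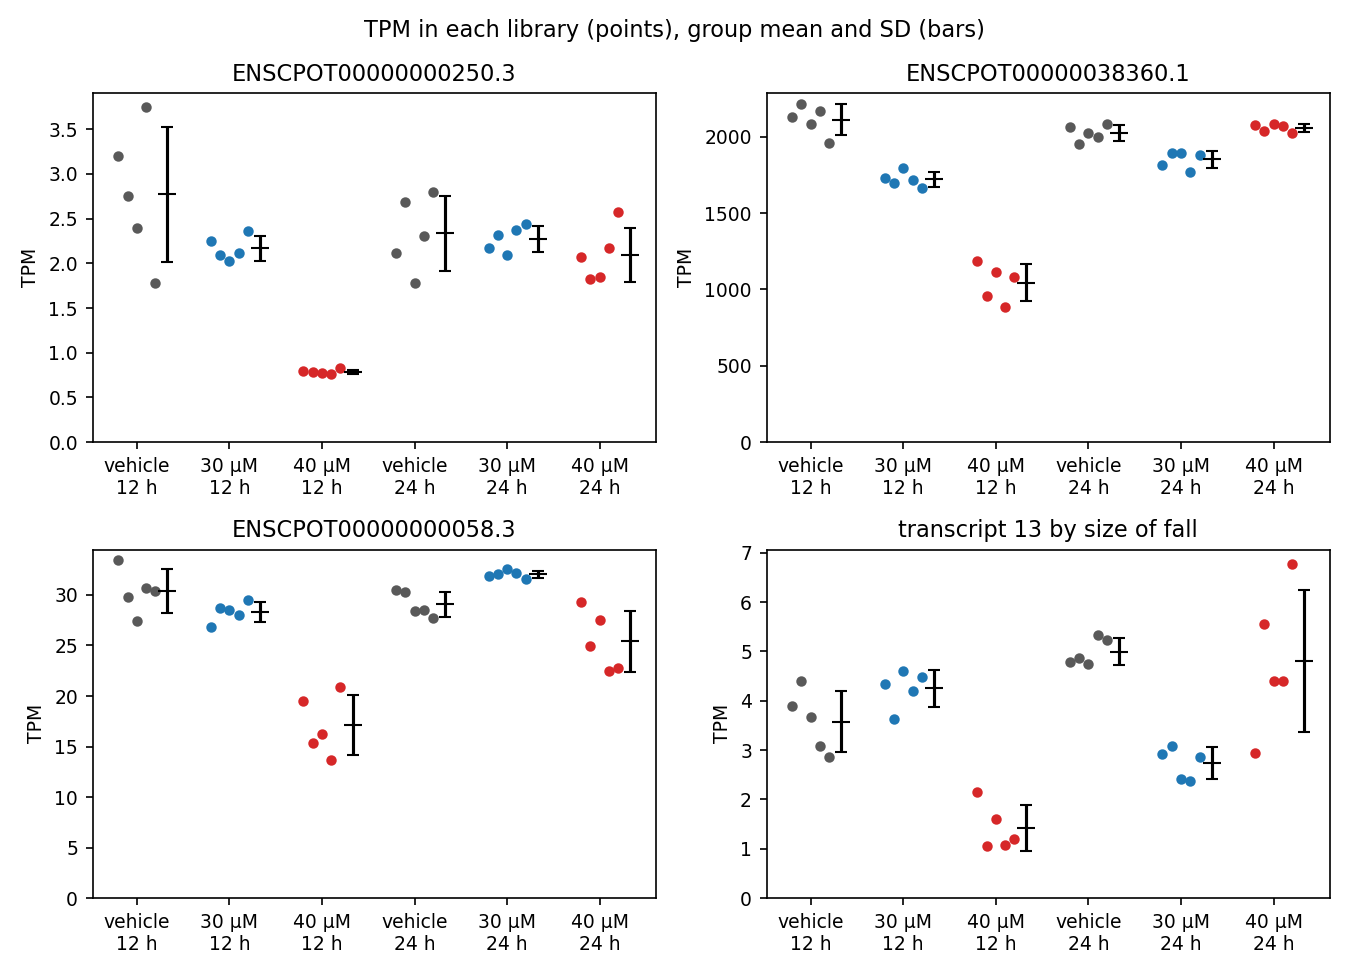
TPM (vertical axes, starting at 0) of 4 members in each library, with the group mean and SD beside the points. In all 4 panels the points of 40 µM at 12 h lie below the vehicle points of 12 h, and in the panel of transcript 13 the points of 30 µM at 24 h lie below those of vehicle at 24 h.

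There were 10 members with at least 90 TPM in vehicle at 12 h, from 1374 to 4488 bases long, 7 of them with whole estimates. At the high dose at 12 h they held between 47.9% and 56.6% of the vehicle mean. Transcript 54, for example, 1897 bases long, measured 637, 642, 662, 654 and 672 TPM in vehicle, 539, 536, 543, 539 and 543 at the low dose, and 394, 344, 370, 323 and 419 at the high dose. Its 3 groups of 12 h were separate, with the low dose between the other two. The choice bounded both doses at 12 h, so their separation is a description. For 9 of the 10, all high-dose libraries of 12 h lay below all low-dose libraries, against 9.29% of all transcripts past the floor. The exception was transcript 18 (2600 bases), where the low-dose libraries held 87.3, 89.6, 88.8, 85.4 and 62.1 TPM and the high-dose libraries 69.7, 40.0, 54.3, 41.9 and 44.1. The low value of low-dose replicate 5 overlapped with high-dose replicate 1.

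The doses differed by 10 µM, and the choice set the members on either side of that step. At the low dose at 12 h, the change had a median of -0.18 and ranged from -0.30 to 0.30. It was below 0 in 47 of the 57 members, while 68.9% of all transcripts past the floor were below 0 and their median was -0.09. After rescaling with TMM factors the median over all transcripts was -0.01 and that of the members -0.10, and 46 members were below 0. In the edgeR fit, which also used TMM, 44 of the 53 members tested and 51.6% of all transcripts tested were below 0. For 15 members, all 5 low-dose libraries lay below all 5 vehicle libraries, against 17.0% of all transcripts past the floor.

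The edgeR test at the low dose at 12 h called 10 of 53 members lower, where 14.0% of all transcripts were called lower, and 1 higher, where 15.0% were. Without low-dose replicate 5 of 12 h, 12 were called lower and 0 higher, where 28.4% of all transcripts were called in either direction. The 10 called lower all had at least 10 TPM in vehicle at 12 h, and their log2 fold changes ranged in size from 0.106 to 0.203. Between the doses at 12 h, 40 of the 51 members tested were called lower at the high dose, where 16.7% of all transcripts were. The log2 ratio of the high-dose to the low-dose mean had a median of -0.79 and ranged from -1.92 to -0.55. In 32 members the high-dose libraries lay below the low-dose libraries without overlap, against 9.29% of all transcripts past the floor. Since the choice bounded both doses, nothing is read from these counts.

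**Figure D3:**
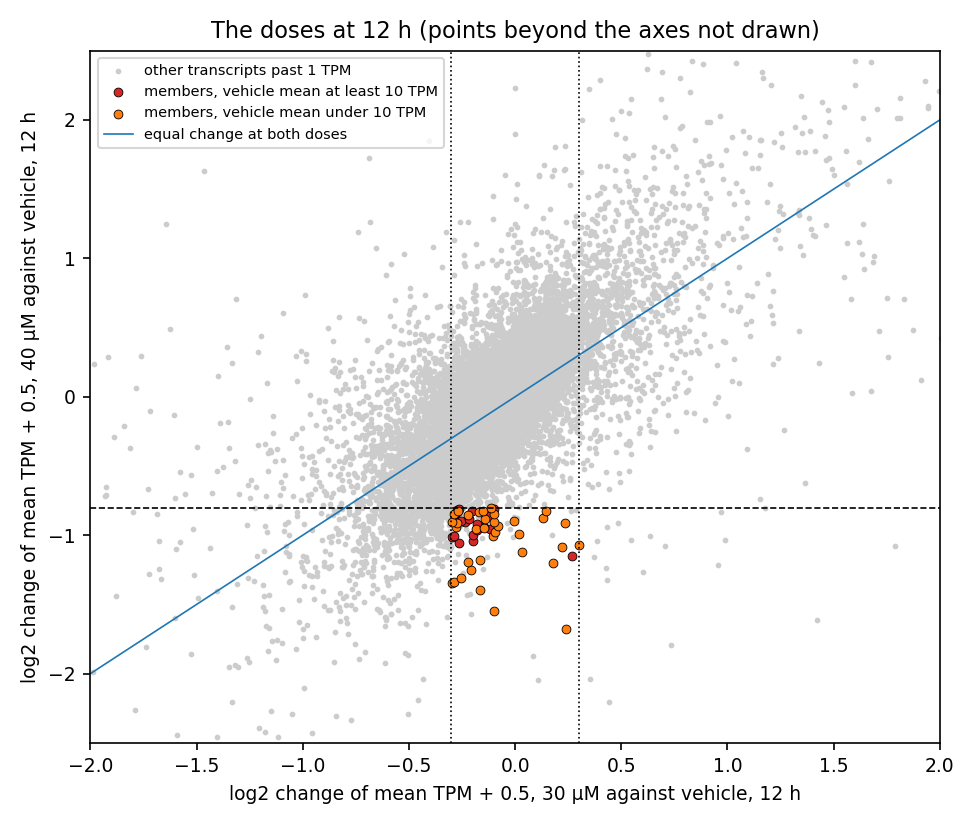
Change at 40 µM (vertical axis) against change at 30 µM (horizontal axis) at 12 h, both as log2 of mean TPM plus 0.5 against vehicle, for members (coloured by level) and other transcripts past 1 TPM (grey). The dashed and dotted lines are the limits of the choice, and the members fill the area from -1.68 to -0.80 on the vertical axis, with 47 of 57 left of 0.

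The high-dose level was higher at 24 h than at 12 h in 56 of the 57 members, with a median log2 ratio of 0.78. The effect of the high dose, taken against the vehicle of each time, was called higher at 24 h than at 12 h in 35 of 53 members tested in the edgeR interaction contrast, where 15.8% of all transcripts were. In 28 members the high-dose libraries of 12 h lay below 3 other groups without overlap, namely both other groups of 12 h and the high-dose group of 24 h, against 5.46% of all transcripts past the floor. The choice used these groups as well.

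The vehicle level itself changed little between the times for most members. The log2 ratio of vehicle at 24 h to vehicle at 12 h lay within ±0.3 in 46 members, below -0.3 in 10 and above 0.3 in 1. In the 46, the high-dose level was higher at 24 h by 0.49 to 1.67 on the log2 scale, with a median of 0.83. In the 10 with a lower vehicle at 24 h the median was 0.52. Of those 10, 9 had fractional estimates and 9 had under 10 TPM. The 1 member whose high-dose level was lower at 24 h than at 12 h, transcript 41 (3477 bases, fractional estimates), had means of 3.95 TPM in vehicle and 1.91 TPM at the high dose at 12 h, and of 1.07 and 1.04 TPM at 24 h. For this transcript the bound at 24 h was met at a lower vehicle level. In all, the high-dose level of 3 members at 24 h was still at least 0.8 below the vehicle level of 12 h on the log2 scale.

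**Figure D4:**
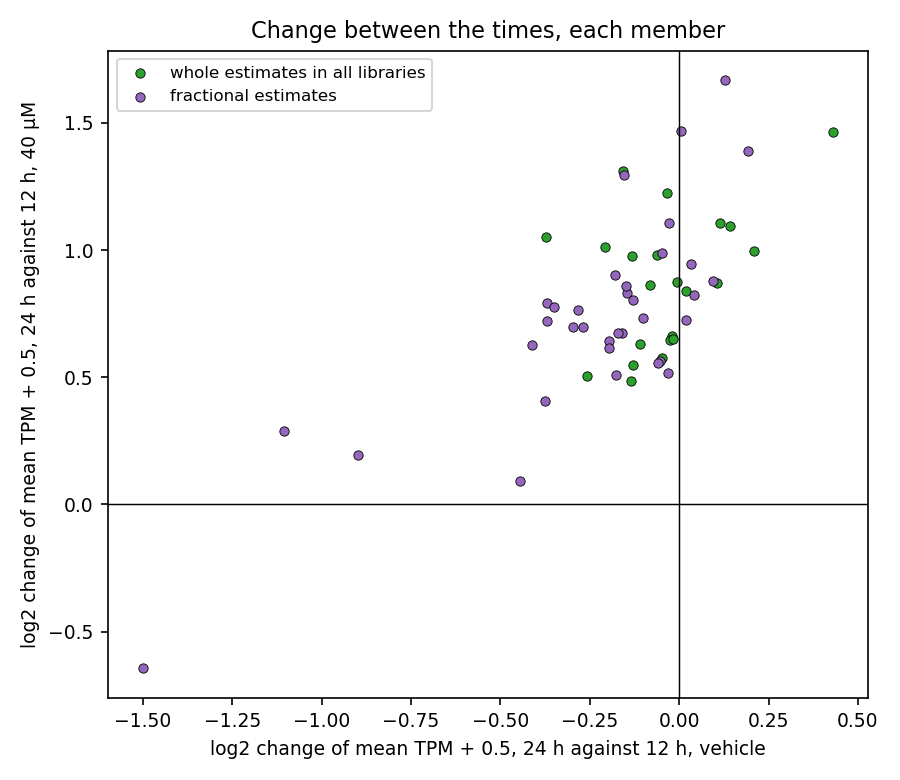
Log2 ratio of 24 h to 12 h in the high-dose group (vertical axis) against the same ratio in vehicle (horizontal axis), on mean TPM plus 0.5, 1 point per member, coloured by whether the estimates were whole or fractional. All points but 1 lie above 0 on the vertical axis, and 46 lie within 0.3 of 0 on the horizontal axis.

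The choice also bounded the high dose at 24 h, so these counts are a description. At the high dose at 24 h, 9 of 53 members tested were called lower than vehicle, where 14.0% of all transcripts were, and none was called higher. Without overlap, 7 of the 57 lay below vehicle, against 10.1% of all transcripts past the floor. The 9 all had at least 10 TPM, with log2 fold changes between 0.121 and 0.292 in size. Transcript 30 (3268 bases), with the largest of these 9 differences, measured 84.4, 94.3, 88.1, 84.4 and 83.4 TPM in vehicle. At the high dose it measured 75.4, 70.7, 73.0, 72.3 and 62.0 TPM. The groups did not overlap, and the log2 fold change was -0.29 (SE 0.05, edgeR adjusted p = 0.00274).

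The comparison of the low dose with vehicle at 24 h was the test that the choice did not bound. The edgeR test called 5 of the 53 members tested, where 21.0% of all transcripts were called. Of these, 4 were lower and 1 was higher, where 10.5% of all transcripts were called lower and 10.5% higher. At an unadjusted p under 0.05 there were 10, a count read no further because the share over all transcripts was not computed. The fitted log2 fold changes had a median of -0.07, against -0.00 over all transcripts, ranged from -0.84 to 1.64, and were below 0 in 34 of 53. The standard error had a median of 0.054 for members of at least 10 TPM and of 0.27 for the others. For 8 of the 57, the libraries of the groups did not overlap in either direction, against 16.6% of all transcripts past the floor.

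On the TPM scale, the change at the low dose at 24 h had a median of -0.09 and lay within ±0.3 in 42 of the 57 members, a band that held 80.3% of all transcripts past the floor. It lay below the band in 8 members and above it in 7. Among members of at least 10 TPM, 20 of 22 lay within the band, and among the others 22 of 35. The 10 members of at least 90 TPM ranged from -0.24 to -0.03. Low-dose replicate 5 of 24 h weighed on this comparison. Without it, 14 members were called, 11 lower and 3 higher, where 28.4% of all transcripts were called. Without any other library the count was 4 or 5, where 17.6% to 19.4% of all transcripts were called.

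**Figure D5:**
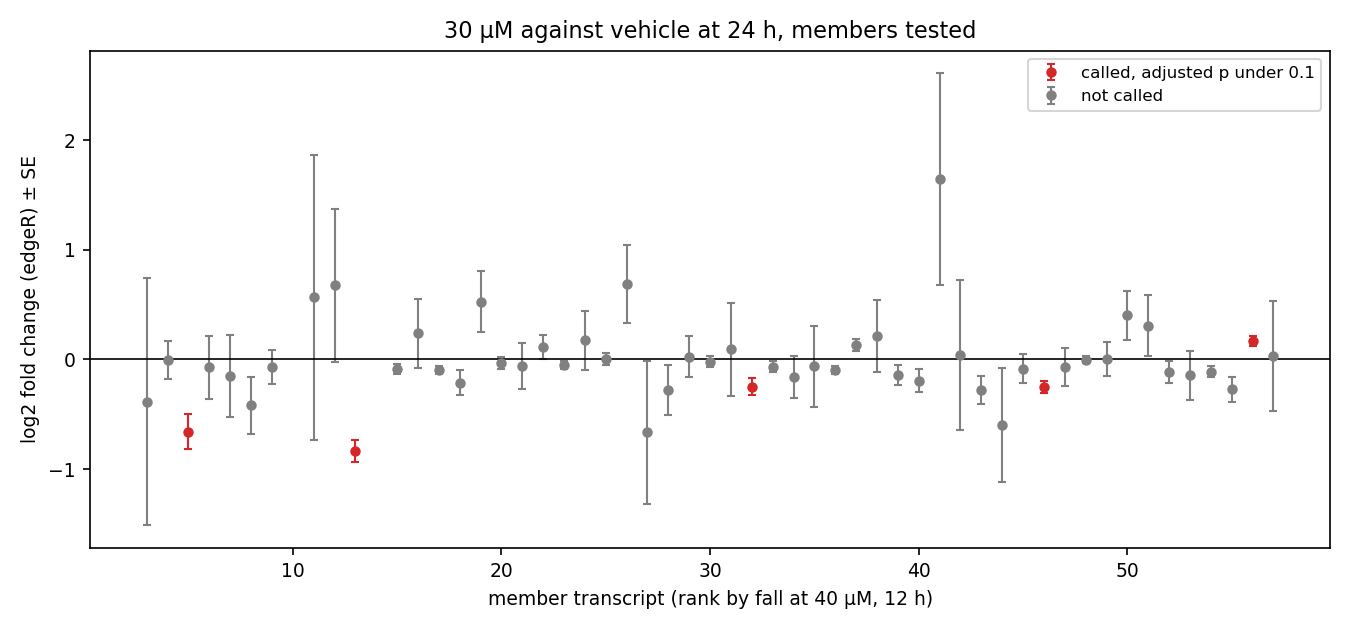
Log2 fold change (edgeR, bars are ± SE) at 30 µM against vehicle at 24 h for the 53 members tested, by rank of the change at 40 µM and 12 h. The 5 called members are red, 4 below 0 and 1 above it, and the grey points with wide bars are mostly members of low level.

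Transcript 13 (3178 bases, whole estimates) had the lowest fitted change at the low dose at 24 h. Vehicle libraries of 24 h held 4.79, 4.87, 4.74, 5.34 and 5.23 TPM, and low-dose libraries 2.92, 3.09, 2.41, 2.38 and 2.87 TPM. The groups were apart, with a log2 fold change of -0.84 (SE 0.10, edgeR adjusted p = 0.000165). At 12 h the low-dose libraries held 4.34, 3.63, 4.60, 4.19 and 4.49 TPM and overlapped with 3.89, 4.39, 3.67, 3.08 and 2.86 TPM in vehicle. This was the member called higher at the low dose at 12 h, with a log2 fold change of 0.34 (SE 0.13, edgeR adjusted p = 0.0973). That call was lost without any of 8 libraries in turn, and with all 30 libraries in one edgeR fit the adjusted p was 0.194. The high-dose libraries held 2.15, 1.07, 1.61, 1.08 and 1.21 TPM at 12 h. At 24 h they spread over 2.94, 5.55, 4.39, 4.40 and 6.78 TPM, the first of them among the low-dose values.

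Transcript 5 (2081 bases, whole estimates) was also called lower at the low dose at 24 h, by a log2 fold change of -0.66 (SE 0.16, edgeR adjusted p = 0.0169). Its vehicle libraries held 1.91, 1.79, 2.19, 1.67 and 1.90 TPM and its low-dose libraries 1.14, 1.20, 1.07, 1.04 and 1.40 TPM, without overlap. Transcript 46 (2579 bases) had a log2 fold change of -0.25 (SE 0.05, edgeR adjusted p = 0.00788) and transcript 32 (5700 bases) of -0.25 (SE 0.08, edgeR adjusted p = 0.0609). The call of transcript 32 was lost without any of 6 libraries in turn.

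The member called higher was ENSCPOT00000000058.3 (transcript 56), 1601 bases long, with fractional estimates. Vehicle libraries of 24 h held 30.5, 30.3, 28.4, 28.5 and 27.7 TPM and low-dose libraries 31.9, 32.1, 32.6, 32.1 and 31.6 TPM. The groups did not overlap, and the log2 fold change was 0.17 (SE 0.04, edgeR adjusted p = 0.0239). With all 30 libraries in one edgeR fit the adjusted p was 0.220. At the high dose the libraries held 19.5, 15.4, 16.3, 13.7 and 20.9 TPM at 12 h and 29.3, 24.9, 27.5, 22.5 and 22.8 TPM at 24 h.

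Between the doses at 24 h, a comparison added after the data were seen, 4 of 53 members were called in the edgeR test, where 3.58% of all transcripts were. Transcripts 23, 30 and 56 were lower at the high dose, and transcript 13 was higher. Leaving out single libraries moved this count between 0 and 6, where 1.56% to 6.23% of all transcripts were called.

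The members were shorter and less abundant than transcripts past the floor in general. Their median length was 1601 bases, against 2418, and 8 of them (14.0%) were under 500 bases long, against 5.02%. Their mean level over all 30 libraries had a median of 4.65 TPM, against 11.8, and 32 (56.1%) were under 5 TPM, against 30.2%. These means include the high-dose libraries of 12 h, which the choice made lower in members. The share with fractional estimates was 61.4% in both sets, 35 of the 57 members. The coefficient of variation at the high dose at 12 h had a median of 24.9%, against 10.8%, and in vehicle at 12 h of 19.6%, against 8.65%. The levels entered the choice through the floor and the means, so no test of these differences is given.

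Several members at the head of the ranking were among the least certain. Transcript 1, 78 bases long, measured 6.39, 0, 0, 5.77 and 11.6 TPM in vehicle at 12 h and 5.68, 0, 0, 0 and 0 TPM at the high dose. Its groups overlapped, and it did not pass the filter on low counts. Transcript 11 (783 bases, fractional estimates) ranged from 0.0408 to 51.2 TPM in vehicle at 12 h and overlapped in the same way. Membership itself was recomputed with each library left out in turn. Of the 57 members, 15 were kept in all 30 of these repeats, with levels of 2.01 to 345 TPM in vehicle at 12 h, 6 of them with whole estimates. Transcript 1 was kept in 17 of the 30, the fewest. The 5 repeats without a low-dose library of 24 h kept all 57 members, since the choice set no limit on that group.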

How the data were processed

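The authors quantified reads of poly-A-enriched stranded libraries with Kallisto 0.42.4, per the submitters' processing notes, on an Ensembl guinea pig transcriptome whose release is not given in the sources used here. Each deposited table holds estimated counts, not normalised, and TPM for 25824 transcripts. Members were found from group means of the deposited TPM (pseudocount 0.5). Estimated counts were rounded and tested in R 4.3.3 with edgeR 4.0.16 (quasi-likelihood test, TMM, filterByExpr, Benjamini-Hochberg over all transcripts, adjusted p under 0.1, the study's threshold), using the libraries of the groups compared. Each standard error is the size of the log2 fold change divided by the root of its F statistic. The members and lists were chosen with earlier results of these data known. Groups followed the labels, and replicate numbers follow the order of the samples. Within groups, libraries correlated at 0.974 to 0.990 and none was a duplicate. At most 4 identifiers were to be printed: the member with the lowest change and the most abundant of the others among those with whole estimates, at least 50 mean counts and no overlap with vehicle, and up to 2 called higher at the low dose at 24 h. Other transcripts described by number were chosen after their values were seen. Planned gene and marker lists were not run for lack of gene names. Alternatives included DESeq2 1.42.0 and limma 3.58.1. Scripts were tested on simulated data. Depth limits the precision of transcripts of low level.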

Additional observations from a re-analysis of the deposited data

Results flagged for a closer look

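The effect of mercuric chloride at 24 h differed between the doses for 4 members by the edgeR test of the high against the low dose. The log2 difference, high dose minus low dose, was 0.79 for transcript 13 (SE 0.20, edgeR adjusted p = 0.0779). It was -0.23 for transcript 23 (SE 0.06, edgeR adjusted p = 0.0748), -0.27 for transcript 30 (SE 0.06, edgeR adjusted p = 0.0579) and -0.35 for ENSCPOT00000000058.3 (SE 0.08, edgeR adjusted p = 0.0547). The comparison was added after the data were seen, and each call was lost when single libraries were left out: for ENSCPOT00000000058.3 without low-dose replicate 2, 3 or 4 or high-dose replicate 2 or 5 of 24 h, with adjusted p from 0.105 to 0.130. In 96 sets of 5 libraries, 10 held a library far from the other 4. Each of 6 groups gave the medians over members and over all transcripts past the floor, the summed TPM of members, and 13 single members. The 13 were the members described by number or identifier, without transcript 41. Chance flags about 1 in 20 sets, but the sets share libraries and several of the transcripts were chosen after their values were seen, so no number expected by chance applies here. Low-dose replicate 5 of 12 h was that library in 3 sets, with a median change of -0.20 over all transcripts past the floor, 62.1 TPM of transcript 18 (others 85.4 to 89.6) and 2.63 TPM of transcript 32 (others 3.79 to 4.04). Low-dose replicate 5 of 24 h, a separate sample, was that library in 3 others, with a median change of -0.12, 54.6 TPM of transcript 18 (others 89.3 to 96.8) and 636 TPM of transcript 54 (others 561 to 579). High-dose replicate 1 of 12 h held 5.68 TPM of transcript 1 (others 0) and 3.03 TPM of transcript 32 (others 1.79 to 2.15). Low-dose replicate 2 of 24 h held 93.1 TPM of transcript 23 (others 97.6 to 98.8), and high-dose replicate 5 of 24 h held 63.6 TPM of transcript 11 (others 0.274 to 2.54).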

How the results depend on the processing

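The number of members was 57, and 34 with a floor of 5 TPM. With single libraries left out it ranged from 48 (without low-dose replicate 3 of 12 h) to 80 (without high-dose replicate 1 of 12 h). A pseudocount of 1 TPM gave 46, of which 39 were among the 57. With medians in place of means there were again 57, of which 24 were among the 57, and with TMM-rescaled TPM 77, of which 44 were. At the low dose at 12 h, 11 of 53 members were called, where 29.0% of all transcripts were. The count was 17 with DESeq2 (33.7% of all transcripts) and 18 with limma on log2 of TPM plus 0.5 (33.4%). It was 5 with all 30 libraries fitted together (25.7%) and 6 at an adjusted p under 0.05 (22.5%). With single libraries left out it was 6 to 12 (24.5% to 28.4%). At the low dose at 24 h, 5 of 53 were called (21.0% of all transcripts), against 12 with limma (22.7%). With single libraries left out the count was 4 to 14 (17.6% to 28.4%). Between the doses at 24 h, 4 of 53 were called (3.58% of all transcripts), against 0 at an adjusted p under 0.05 (1.88%). With single libraries left out the count was 0 to 6 (1.56% to 6.23%). With a replicate block by the order of the numbers in the sample titles, the counts were 5 at the low dose at 12 h, 2 at the low dose at 24 h and 0 between the doses at 24 h, where 18.5%, 10.1% and 0.006% of all transcripts were called. In the 6 comparisons of 2 groups, libraries of the same position had deviations from their group means that correlated at -0.144 to 0.0368, under the 0.1 taken as a sign of pairing. The other counts of calls stayed within 1.5 times. Of 1098 values of single transcripts under alternatives, 999 kept their direction and side of the threshold, 61 lost the call, 23 gained it and 15 changed sign, none of them called before or after. The sign changes were ENSCPOT00000000058.3 at the low dose at 12 h (0.0118 with the replicate block, -0.0495 to 0.0348 with single libraries left out), ENSCPOT00000000250.3 at the low dose at 24 h (0.00350 with DESeq2, 0.0725 with the replicate block, -0.0913 to 0.0679 with single libraries left out), transcript 30 at the low dose at 24 h (-0.0630 to 0.0119), and transcripts 5 (-0.305 to 0.0574) and 13 (-0.208 to 0.0783) at the high dose at 24 h. The causes were not tested.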
